A study of Rattus norvegicus with 11 samples.

Results

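The genes with the steadiest RNA level across the retinas of 11 female rats were examined. They are the 200 genes with the lowest coefficient of variation (CV, the standard deviation as a percentage of the mean) of normalized signal over all 11 libraries. Of 12037 genes in the deposited table, 8934 had a mean signal of at least 20, and 8673 of these also had overlapping value ranges in the DMSO and halofantrine groups. The 200 members are the most stable of those 8673 eligible genes. The rule used every library, so the CVs, levels and group differences of the members are a description. The counts of members that pass a test of gene level are given beside the share over all genes and support nothing, because the rule selected on the same values.

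The retinas were collected to ask how halofantrine, a drug developed against malaria, alters gene expression in a model of inherited photoreceptor loss. The 9 P23H retinas came from hemizygous P23H-1 females, which carry a transgene for mutant rhodopsin and were bred by crossing that line to Long Evans rats (strain P23HxLE). Of these, 5 had received DMSO, the solvent, and 4 had received halofantrine, by bilateral injection into the vitreous. Wild type was represented by 2 females of strain SDxLE that were not treated. The drug concentration of each library and the age at RNA collection are not given in the labels. The titles of the wild-type libraries end in L and those of all P23H libraries in R, with no stated meaning. Genotype, strain cross, injection and whatever the letters stand for cannot be told apart in any comparison with wild type. Each library is labelled as a different animal, so that the spread described here is between animals. Over all eligible genes, DMSO replicate 3 and halofantrine replicate 1 stood apart from the rest of their groups, as described with the library values, and results that rest on them are given with and without them.

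Genes with a steady level across tissues or treatments are often those needed by nearly every cell, and a few of them are used as reference genes against which other genes are scaled. Whether a gene looks steady depends on the samples and on the scaling, because a change shared by most genes is removed when libraries are brought to a common size. In whole retina a steady level also does not show a steady level in each cell type. A loss of cells and less RNA per cell cannot be told apart in bulk tissue. The deposited tables name genes by Ensembl identifier only, and 0 identifiers could be paired with a gene symbol. The members are therefore given by identifier and by rank, where rank 1 has the lowest CV. Their functions, their overlap with known reference genes and the cell type markers of the retina were not analysed here.

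The members had CVs from 3.40% to 6.97%, with a median of 6.21%. The other 8473 eligible genes had a median CV of 17.2%. The members form the lower edge of a continuous distribution and are not a separate group of genes. Of all eligible genes, 1082 (12.5%) had a CV under 10%, whereas 19 members were under 5% and 5 were under 4%. At the limit, the genes of ranks 198 to 200 had CVs of 6.964%, 6.973% and 6.973%, and the first 3 genes outside had 6.975%, 6.976% and 6.980%. The ratio of the highest to the lowest library of a member lay between 1.103 and 1.31, with a median of 1.22. Among the other eligible genes its median was 1.75. In 62 members the highest library was less than 1.2 times the lowest.

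**Figure D1:**
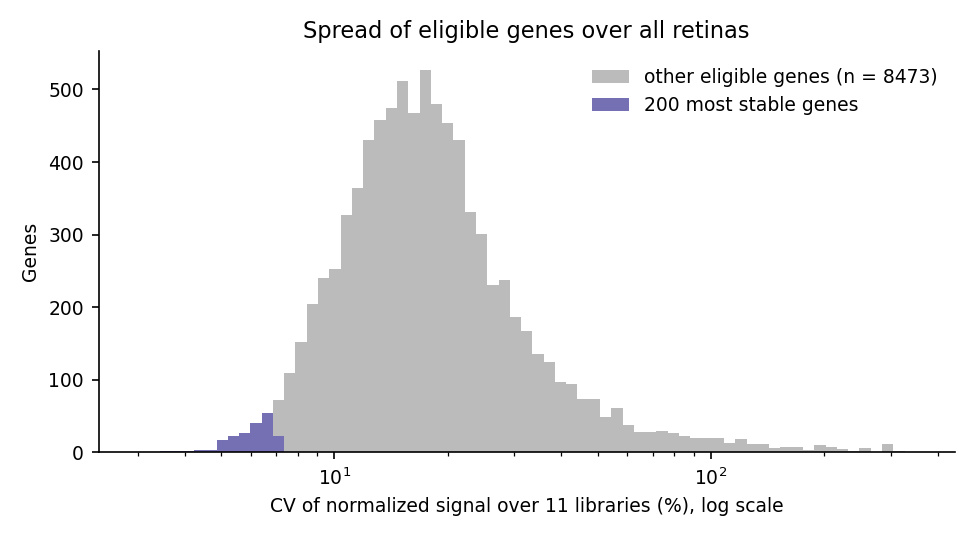
Number of eligible genes (vertical axis) by CV of normalized signal over 11 libraries in percent (horizontal axis, log scale), for the 200 most stable genes and the 8473 others. The members occupy the lower tail, from 3.40% to 6.97%, and no gap separates them from the other genes.

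The member with the lowest CV was ENSRNOG00000012192, with a mean normalized signal of 120.5 and an SD of 4.10 over the 11 libraries. Its signal was 126.9 and 122.2 in the wild-type retinas. With DMSO it was 119.4, 120.5, 124.8, 119.2 and 120.8, and with halofantrine 110.4, 120.6, 121.3 and 119.9. All libraries but halofantrine replicate 1 thus lay between 119.2 and 126.9, and wild type overlapped DMSO but lay above all 4 halofantrine values. The group means were 124.6 ± 3.34 in wild type (SD, n = 2), 120.9 ± 2.26 with DMSO (SD, n = 5) and 118.0 ± 5.12 with halofantrine (SD, n = 4). The member of rank 2, ENSRNOG00000009015, had 80.2 and 82.0 in wild type. Its values were 78.3, 84.5, 85.0, 84.2 and 79.5 with DMSO, and 79.7, 80.4, 87.6 and 79.8 with halofantrine. Both wild-type values fell inside each P23H range, and the highest value came from halofantrine replicate 3. The member of rank 3, ENSRNOG00000005762, had 41.7 and 43.0 in wild type, 45.2, 41.4, 45.1, 41.6 and 43.6 with DMSO, and 42.5, 41.0, 44.0 and 41.1 with halofantrine. This gene had the narrowest range of the 3, its highest library being 1.103 times its lowest.

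The members of ranks 4 to 10 had mean signals between 45.1 and 153.7. Across the first 10 ranks each of the 110 values lay within 91.6% and 108.1% of its gene's mean. The library at the extreme changed from gene to gene. Wild type overlapped DMSO in 10 of these 10 genes and halofantrine in 8, the exceptions being ranks 1 and 8. Over all 200 members wild type and DMSO were apart in 20%, and over all eligible genes in 50.8%. Such a share was not counted for halofantrine. A low CV over the same libraries favours overlap by construction.

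**Figure D2:**
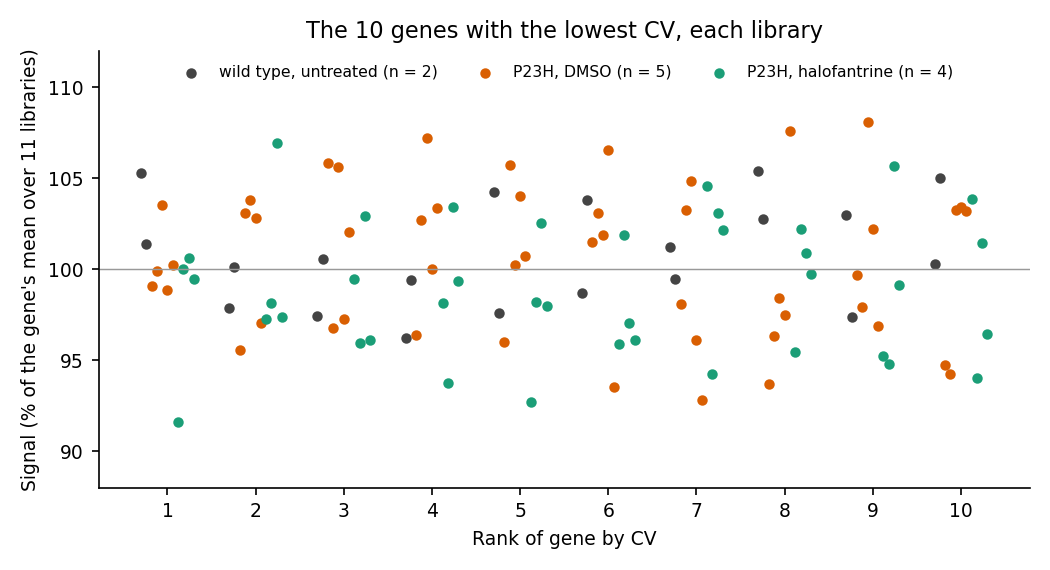
Signal of the 10 members with the lowest CV in each library, as a percentage of the gene's mean over 11 libraries (vertical axis), by rank (horizontal axis). Each point is 1 library, coloured by group (2 wild type, 5 DMSO, 4 halofantrine), and all points lie between 91.6% and 108.1%.

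The members had mean signals from 21.6 to 508, with a median of 76.5, where all eligible genes had means from 20.0 to 20185.3 and a median of 57.5. Signal was not divided by transcript length, so these values do not rank the genes by RNA copies. Members were not found at equal rates along the scale of signal, and 0 had a mean above 508. They made up 58 of 3758 eligible genes (1.54%) with a mean of 20 to 50, 80 of 2582 (3.10%) between 50 and 100, 49 of 1464 (3.35%) between 100 and 200, and 13 of 869 (1.496%) at 200 or above. The member with the highest mean, of rank 128, had 540.8 and 518.4 in wild type, 483.6, 537.4, 457.9, 499.4 and 493.4 with DMSO, and 479.3, 503.0, 574.1 and 497.8 with halofantrine. In that gene the ranges of the 3 groups overlapped, which the rule requires of DMSO and halofantrine. The members next in mean signal differed in this. Wild type overlapped P23H in the genes of ranks 193 (mean 433.5) and 86 (mean 333.3). Both wild-type values lay below all P23H values in the gene of rank 23 (mean 420.2), and above them in that of rank 177 (mean 325.7).

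Part of the spread of a member came from the counting of reads. The CV that counting alone would give, taken as Poisson error at the depth of each library, was 1.02% to 4.98% for the members, with a median of 2.64%. Its square made up a median of 19.9% of a member's observed variance, within a range of 2.51% to 92.4%. For the other eligible genes the median was 2.89%. Counting reached 20% of the variance in 99 members and 50% in 21 members, of 301 and 22 such genes among all eligible genes. The rule favoured genes of low observed variance, which raises this share by construction. The gene of rank 3 was the extreme, with counting at 92.4% of its variance, and its lowest and highest libraries were 41.0 and 45.2. The lowest count of any member in any library was 232, and the median was 1483. Intervals and shares of this kind cover counting error only.

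**Figure D3:**
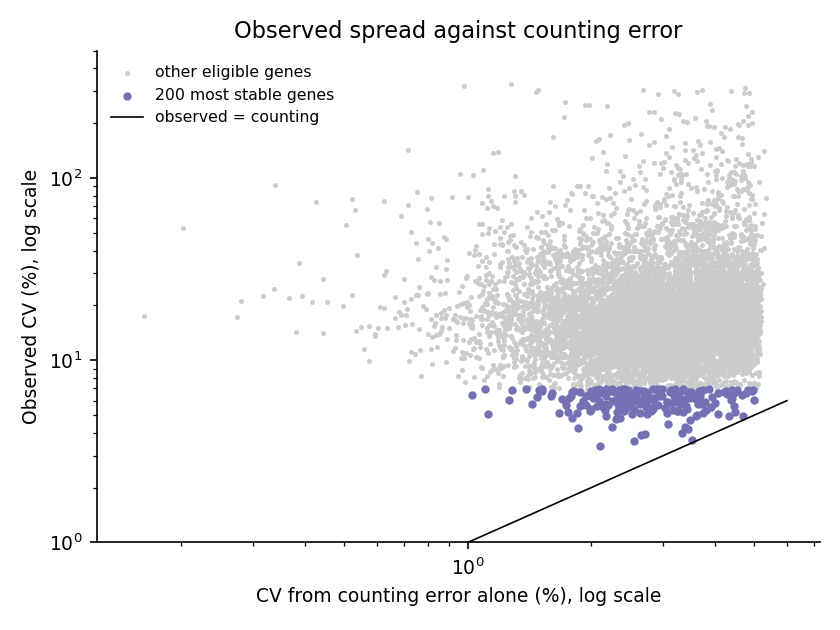
Observed CV over 11 libraries in percent (vertical axis, log scale) against the CV that counting error alone would give in percent (horizontal axis, log scale), 1 point per eligible gene, with the line of equality. The 200 members lie along the lower edge of the points, and the gene of rank 3, with counting at 92.4% of its variance, is the closest to the line.

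Between treatments within P23H, the members differed little, as the rule requires. The difference in mean log2 signal between halofantrine and DMSO had a median of −0.005 over the members and a range of −0.15 to 0.13. It was within 0.1 of 0 in 181 members, against 42.8% of all eligible genes. In the edgeR quasi-likelihood test over 12031 genes, 0 of 200 members passed an adjusted p of 0.05 and 0 had an unadjusted p under 0.05. The background share of genes called was 0.00831%. DESeq2 and limma-voom also called 0 members, with shares over all genes of 0.282% and 0.00831%. The fitted log2 differences had a median standard error of 0.077.

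Between P23H and wild type, the log2 difference had a median of −0.050 over the members, from −0.20 to 0.18, with 140 members lower and 60 higher in the P23H retinas. All eligible genes had a median of −0.044 on the same scale. The difference was within 0.1 of 0 in 143 members, against 20.2% of all eligible genes. The direction of the median depended on the scaling. It was −0.036 with DESeq2 size factors (68 higher, 132 lower), −0.004 with TMM factors (94 higher, 106 lower) and 0.11 with plain CPM (183 higher, 17 lower). The median of all eligible genes moved with it, to −0.030, 0.00 and 0.11. A scaling shifts all genes alike, and no common direction of the members can be stated.

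Both wild-type values lay outside the range of all 9 P23H values in 21 members (10.5%), of which 19 had wild type above and 2 below. Among all genes of the table this share was 36.8%, with 20.1% above and 16.6% below, and among eligible genes it was 35.9%. The edgeR test called 0 members for DMSO against wild type, where the background was 21.2%, and 0 for halofantrine against wild type, where the background was 13.1%. At an unadjusted p under 0.05 there were 1 and 2 members. DESeq2 called 1 and 4, with backgrounds of 28.2% and 20.7%, and limma-voom called 0 and 0, with backgrounds of 14.4% and 8.51%. The comparisons with wild type share the same 2 wild-type libraries. As the CV was computed over all of these libraries, none of these counts is a result about the members.

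The members with the largest differences show how wide the limits of the set are. ENSRNOG00000060379, of rank 150, had a signal of 54.4 and 55.4 in wild type, 45.0, 47.4, 49.1, 48.5 and 48.0 with DMSO, and 51.2, 46.6, 48.8 and 46.3 with halofantrine. Both wild-type values exceeded all P23H values, with a log2 difference of −0.20. ENSRNOG00000002270, of rank 177, had 352.2 and 375.1 in wild type, 304.8, 327.7, 317.1, 311.4 and 299.8 with DMSO, and 323.1, 324.5, 338.3 and 308.7 with halofantrine. Its ranges were likewise apart, and its log2 difference was −0.20. In the opposite direction, ENSRNOG00000023874, of rank 125, had 37.2 and 40.8 in wild type, 43.9, 44.4, 45.8, 43.5 and 42.4 with DMSO, and 46.7, 45.0, 45.5 and 40.9 with halofantrine. Every P23H value was above both wild-type values, by as little as 40.9 against 40.8. The log2 difference was 0.18, and it was 0.12 without wild-type replicate 1 and 0.25 without wild-type replicate 2. ENSRNOG00000007364, of rank 178, had a log2 difference of 0.14, but its wild-type values of 25.6 and 21.9 spanned part of the P23H range, and the difference was 0.02 without wild-type replicate 2. With plain CPM, the differences of these 4 genes became −0.04, −0.04, 0.34 and 0.29.

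The same libraries looked very different when all eligible genes were considered. As a measure of distance, the absolute log2 deviation of each gene from its own median library was taken, and its median over genes was computed per library. Over all eligible genes it was 0.253 in DMSO replicate 3, 0.228 in halofantrine replicate 1, and 0.213 and 0.239 in the wild-type libraries. The other 4 DMSO libraries were at 0.075 to 0.119 and the other 3 halofantrine libraries at 0.075 to 0.136. Thus 1 library of each injected group stood about as far from the typical level as wild type did. Over the members the measure was 0.037 to 0.079 in all 11 libraries, which is small by construction, because the rule selected on these libraries. The highest member values were in halofantrine replicate 1 (0.0793) and DMSO replicate 3 (0.0787), so the order was partly kept at a smaller size. DMSO replicate 3 was highest in 40 members, against 24% of all eligible genes, and halofantrine replicate 1 lowest in 47, against 19.6%. Halofantrine replicate 3 was highest in 39 members, against 4.98%, and DMSO replicate 1 lowest in 41, against 8.39%. DMSO replicate 3 or halofantrine replicate 1 held the highest or lowest value of 108 members (54.0%), against 65.5% of all eligible genes.

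**Figure D4:**
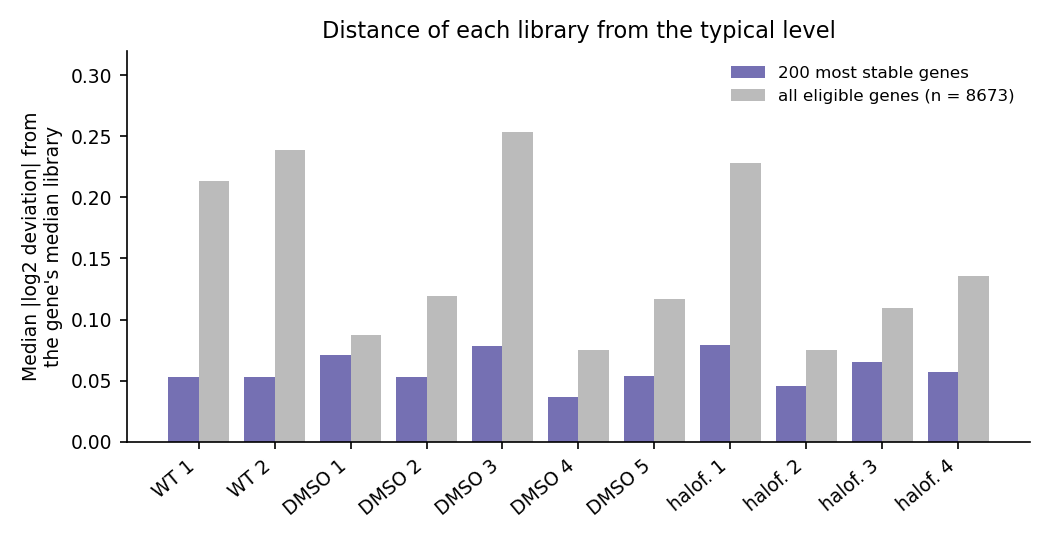
Median over genes of the absolute log2 deviation from the gene's own median library (vertical axis), for each of the 11 libraries (horizontal axis), for the 200 members and for all 8673 eligible genes. Bars for all eligible genes rise to 0.253 in DMSO replicate 3, whereas bars for the members stay between 0.037 and 0.079. The members were selected for a low spread over the same libraries.

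Without DMSO replicate 3 and halofantrine replicate 1, the CV of the members had a median of 5.59%, from 1.94% to 7.62%, and that of all eligible genes a median of 14.2%. Of the 200 members, 72 would be chosen again by the same rule without both libraries. In that smaller set of libraries, edgeR called 0 members for halofantrine against DMSO, 3 for DMSO against wild type and 8 for halofantrine against wild type. The background shares rose too, to 44.8% and 45.5% for the comparisons with wild type. Within single groups, with all 11 libraries kept, the median CV of the members was 2.66% in wild type, 5.52% with DMSO and 5.59% with halofantrine. The wild-type CV rests on 2 libraries per gene, against 5 with DMSO and 4 with halofantrine. The corresponding values for all eligible genes were 4.19%, 13.5% and 13.7%.

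Summed over the members, the signal was nearly the same in every retina, which the choice of a low CV over the same libraries favours by construction. It was 19079.8 and 19081.0 in wild type, 18558 ± 284 with DMSO (SD, n = 5) and 18348 ± 408 with halofantrine (SD, n = 4), and its CV over the 11 libraries was 2.11%. Both wild-type sums were above the highest P23H sum of 18943. As a share of all counts, however, the members took 1.73% to 1.74% in wild type and 1.76% to 1.94% in P23H, so the order of the groups was the opposite before scaling. Members as a group therefore sat lower or higher in P23H according to the denominator.

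A further set was ranked without the wild-type libraries. When the CV was computed on the 9 P23H libraries only, among the same 8673 eligible genes, whose limit on the mean had used all 11 libraries, the 200 genes with the lowest value included 95 of the members. Their absolute log2 difference from wild type had a median of 0.194, against 0.268 for all eligible genes. In 70 of them (35.0%) the difference exceeded 1.2-fold, against 50.7% of eligible genes, and 0 exceeded 2-fold, where 565 eligible genes did. In edgeR, 43 (21.5%) were called for DMSO against wild type and 41 (20.5%) for halofantrine against wild type, beside backgrounds of 21.2% and 13.1%. Of the 43, 9 were higher and 34 lower in P23H, beside backgrounds of 10.9% and 10.3%, and of the 41, 7 were higher and 34 lower, beside 5.55% and 7.58%. Whether these shares differ from the backgrounds was not tested. The standard errors of these genes were small, with a median of 0.093 for DMSO against wild type where all eligible genes had 0.167. The ranking chose a low spread in the same 9 P23H libraries, which lowers these standard errors by construction and bears on the counts called. Those counts are therefore a description. On the scale of the normalized table, 165 of the 200 were lower in P23H and 35 higher, with a median log2 difference of −0.17. With TMM factors the median was −0.12 (152 lower, 48 higher) and with plain CPM −0.01 (109 lower, 91 higher). A scaling shifts all genes alike, so the distance of 0.12 below the median of all eligible genes is the same under each by construction.

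A steady gene total can be made of transcripts that are themselves less steady. Transcripts are alternative RNA forms of a gene, and the share of a gene's counts assigned to each of them was not used by the rule. Of the members, 122 (61.0%) had at least 2 transcripts with 10% or more of the gene's counts, against 52.1% of the other eligible genes, and 78 had 1. The leading transcript took a median of 79.6% of a member's counts, against 85.3% in the others. In the 122 members, the CV of the leading transcript had a median of 11.1% where the CV of the gene had 6.34%. In the other eligible genes of this kind these medians were 21.7% and 16.7%. In 52 of the 122 members (42.6%) the leading transcript had more than 2 times the CV of its gene, against 11.2% of the other genes of this kind. The ratio of the variance of the gene total to the summed variances of its transcripts had a median of 0.333 in the members and 1.05 in the others. A ratio below 1 means that transcripts of a gene varied in opposite directions. The rule selected a low variance of the total, which by construction lowers this ratio and raises the count of transcripts with a CV above that of their gene, so neither comparison with other genes is a result about the members. Reads that fit several transcripts are divided among them by estimation, and the part of this in the ratio was not tested.

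The gene of rank 2 is an example. Its leading transcript, ENSRNOT00000105959.2, took 42.4% of the counts and had a CV of 18.3%, while the gene total had 3.61%. In the gene of rank 1, ENSRNOT00000114738.2 took 41.7% and had a CV of 7.85%, against 3.40% for the total. The gene of rank 3 had 1 transcript with 10% or more of its counts, which took 97.4%.

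Transcript usage was tested in 167 members that kept at least 2 transcripts, in a fit of all transcripts over the 11 libraries (edgeR diffSpliceDGE, with the gene-level Simes p adjusted over 8261 genes). Between halofantrine and DMSO, 0 members passed an adjusted p of 0.05, with 10 at an unadjusted p under 0.05 and a background of 0.0484%. Between DMSO and wild type 1 member passed, with 10 at an unadjusted p under 0.05 and a background of 0.884%. Between halofantrine and wild type 1 member passed, with 7 at an unadjusted p under 0.05 and a background of 0.787%. These shares were close to the background, and a difference between members and other genes was not tested.

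The call between halofantrine and wild type was ENSRNOG00000025462, of rank 53 (edgeR adjusted p = 0.0228). It rested on the transcript ENSRNOT00000109022.2, which took 6.6% and 18.1% of the gene's counts in the wild-type retinas. With DMSO its share was 0.0%, 0.0%, 1.9%, 0.0% and 1.6%, and it was 0.0% in each of the 4 halofantrine retinas. The shares did not overlap between wild type and P23H, although the wild-type values rested on 36 and 67 counts. The leading transcript of this gene, ENSRNOT00000067022.6, took 64.9% and 68.0% in wild type and 55.5% to 75.5% in P23H, so that its share overlapped. The signal of the whole gene was 33.2 and 31.6 in wild type, inside the range of 30.4 to 34.9 with DMSO and below the range of 34.7 to 36.9 with halofantrine. The call stood with the gene-level F test of edgeR (adjusted p = 0.00796) and with limma (adjusted p = 0.00243).

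The call between DMSO and wild type was ENSRNOG00000046333, of rank 23 (edgeR adjusted p = 0.0245). It rested on ENSRNOT00000094056.2, with a share of 0.0% and 22.1% in the wild-type retinas and of 0.0% to 0.7% with DMSO. With halofantrine its shares were 9.3%, 0.0%, 0.0% and 2.0%. The wild-type replicates therefore disagreed, and 1 of them alone carried the difference. The F test gave an adjusted p of 0.0847 and limma 0.669, so neither called it. Another transcript of this gene, ENSRNOT00000106287.2, took 28.0% and 24.4% in wild type and 14.9% to 18.7% in all 9 P23H libraries. That transcript was singled out after its values were seen. The gene is also 1 of the 2 members whose wild-type signal, 388.2 and 397.4, lay below all P23H values, which ran from 404.4 to 456.6.

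The gene of rank 19, ENSRNOG00000013336, came next between DMSO and wild type (edgeR adjusted p = 0.0865). It was called by the F test (adjusted p = 0.00665) and by limma (adjusted p = 0.00372). The edgeR p rested on ENSRNOT00000126296.1, a minor transcript with shares of 6.1% and 4.3% in wild type, 0.0% in all 5 DMSO libraries, and 4.3%, 3.9%, 0.0% and 0.0% with halofantrine. Wild type and halofantrine overlapped in that share. The leading transcript, ENSRNOT00000060146.6, is given after its values were seen. It took 66.2% and 73.9% of the counts in wild type. With DMSO it took 76.0%, 83.3%, 85.2%, 86.0% and 84.8%, and with halofantrine 77.4%, 79.3%, 83.4% and 80.2%. Every P23H share was above both wild-type shares, while the gene total had a CV of 4.95% over the same libraries.

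**Figure D5:**
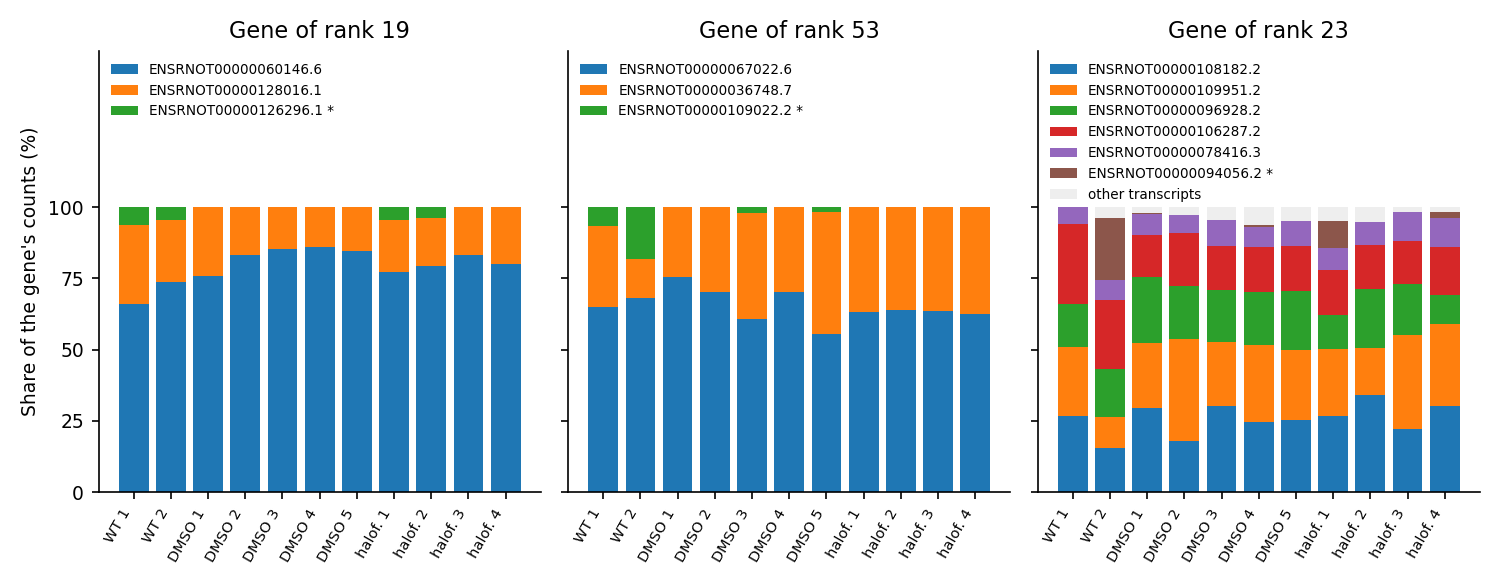
Share of the gene's counts taken by each transcript in percent (vertical axis) in each of the 11 libraries (horizontal axis), for the genes of ranks 19, 53 and 23. An asterisk in the key marks the transcript with the smallest p. In the gene of rank 53 that transcript takes 6.6% and 18.1% in wild type and 0.0% to 1.9% in P23H, and in the gene of rank 23 it takes 22.1% in wild-type replicate 2 and 0.0% in replicate 1.

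The usage calls changed with single libraries. In the comparisons with wild type they depended on which wild-type replicate was left out. Such fits keep 1 wild-type library and hold no spread between wild-type animals, so their counts are not given. For DMSO against wild type, 0 members were called without DMSO replicate 1, 2 or 5 or without halofantrine replicate 1. The shares over all genes in those fits were 0.608% to 0.888%. For halofantrine against wild type, 0 were called without halofantrine replicate 2, 3 or 4, with shares over all genes of 0.582% to 0.946%. When only transcripts with at least 10% of their gene's counts were kept, 0 of 122 members were called in any of the 3 comparisons. The shares over all genes were then 0.659% for DMSO and 0.56% for halofantrine against wild type, and 0% between halofantrine and DMSO. Without DMSO replicate 3 and halofantrine replicate 1 together, 0 members were called between halofantrine and DMSO, 1 between DMSO and wild type, and 0 between halofantrine and wild type, with shares over all genes of 0.885% and 1.13% for the comparisons with wild type.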

How the data were processed

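RNA of 11 female rat retinas, with a RIN of at least 9 per the labels, was sequenced from strand-specific libraries of polyadenylated RNA. The authors used kallisto to assign reads to rat Ensembl transcripts, and tximport to sum these by gene. Their deposited gene and transcript tables hold estimated counts, not scaled for depth, with 12037 genes after a filter that is not given in the sources used here. Kallisto divides shared reads by estimation, so near-identical genes and transcripts can exchange counts. The deposited normalized signal equals the gene count divided by 1 constant per library, an effective library size, so CPM scaled in this way do not sum to the same total. The authors' table of their own comparison (fold changes, p-values, scores) was not used.

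Totals were 11685202 to 34198536 counts per library. Groups came from the labels (2 wild type, 5 DMSO, 4 halofantrine). Replicates were numbered in order of deposition. Members and lists were chosen with earlier results of these data known. Genes named were the members with the lowest CV, the highest mean, those at the limit, those with the largest differences between P23H and wild type, and those with the smallest usage p. At most 2 higher and 2 lower members are given by identifier. Lists fixed by gene symbol (reference genes, cellular machinery, retinal cell markers) were not analysed, as 0 identifiers matched a symbol in the reference table used here.

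Transcripts were tied to genes by runs of neighbouring transcripts whose counts summed to the gene count in all 11 libraries, within 0.05 counts, which held for 12037 of 12037 genes. Genes sharing a transcript with another gene (6 pairings of a transcript with a gene) were left out of transcript work. Counts were rounded. filterByExpr kept 12031 genes. Tests used edgeR 4.0.16 (run in R 4.3.3), TMM factors and a model of 3 groups, with Benjamini-Hochberg adjustment over all genes tested. P-values measure the spread between these animals. The gene test and the usage test were tested on simulated data. Alternatives were DESeq2 1.42.0, limma 3.58.1, other scalings, limits and measures of spread, other usage tests and each library left out. The fits without both libraries that stood apart and the scalings of the differences from wild type were added after seeing the data. Tables and figures were made in Python 3.11.15.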

Additional observations from a re-analysis of the deposited data

Results flagged for a closer look

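In 62 sets of 4 or 5 libraries of 1 group, 5 had a highest or lowest library farther from the others than the 95% limit of Dixon's ratio. At 1 in 20, about 3.1 would be reached by chance if the sets were independent. The sets reuse the same libraries and mostly hold values that the rule used, so that number does not strictly apply. The flagged values are a description. In the gene of rank 1, halofantrine replicate 1 was lowest at 110.4, with the other 3 at 119.9 to 121.3. In the gene of rank 2, halofantrine replicate 3 was highest at 87.6, with the other 3 at 79.7 to 80.4. Just outside the limit, the gene of rank 202 had its lowest DMSO value, 42.3, in replicate 3 (the other 4 at 47.8 to 49.5), and the gene of rank 203 had its lowest halofantrine value, 48.7, in replicate 1 (the other 3 at 55.2 to 56.5). The median log2 deviation of the members was lowest in DMSO replicate 1, at −0.0488, with the other 4 DMSO libraries at −0.00065 to 0.0067. DMSO replicate 1 was the library with the fewest counts and held the lowest value of 41 members, against 8.39% of all eligible genes. The part of depth in this was not tested.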

How the results depend on the processing

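Membership moved with the scaling, the libraries and some measures of spread. Of the 200 members, 95 were chosen again with plain CPM, 95 on the 9 P23H libraries only, 84 by the mean of within-group CVs, 45 by the median absolute deviation over the median, and 72 without both libraries that stood apart. Leaving out 1 library kept 107 to 180, with 107 without halofantrine replicate 1 and 123 without DMSO replicate 3. TMM factors kept 151, DESeq2 size factors 169, the SD of log2 values 188, the highest over the lowest value 154, and no overlap requirement 197. For halofantrine against DMSO, 0 members were called for gene level and 0 for usage under every alternative run. The shares over all genes were 0% to 0.282% for gene level and 0% to 0.23% for usage. For DMSO against wild type, 1 member was called with DESeq2 (28.2% over all genes) and 3 without both libraries (44.8%). With 1 P23H library left out 0 to 1 were called (16.9% to 30.3%). For halofantrine against wild type, 4 members were called with DESeq2 (20.7% over all genes) and 8 without both libraries (45.5%). With 1 P23H library left out 0 to 3 were called (7.4% to 29.8%), the highest without halofantrine replicate 1 (23.2%). Usage calls for DMSO against wild type were 3 with the F test, 4 with limma, 0 with the 10% filter and 0 to 5 with 1 library left out. Usage calls for halofantrine against wild type were 2 with the F test (2.55%) and 2 with limma (0.666%). They were 0 with the 10% filter (0.56%) and 0 without both libraries (1.13%). With 1 P23H library left out they were 0 to 1 (0.572% to 1.06%). The median log2 difference of the members from wild type was −0.0041 with TMM factors, turned to 0.106 with plain CPM, and was −0.058 to −0.045 with 1 library left out. No paired analysis was possible because replicate numbers were given in order of deposition and pair no animals. Depth limits members of low signal, whose spread is partly counting error.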
